A study of Caenorhabditis elegans with 12 samples.

Results

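Long intergenic noncoding RNAs are transcripts that carry no recognised reading frame and arise from stretches between protein-coding genes. In the nematode Caenorhabditis elegans they were catalogued from sequenced transcripts and given symbols that begin linc-, numbered without reference to function, so that most have no known role. As a class they are known for low abundance, and as background some are expressed at particular stages or in particular cells, which a whole-worm library dilutes. The genes described here are those whose WormBase symbol in the WBcel235 annotation begins linc- and that had at least 10 counts in 3 or more libraries. The rule kept 68 of 170 linc- genes, out of 46748 genes in the count table. The genes were thus chosen by their counts, which are given as a description and support no test.

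The RNA came from whole hermaphrodites of the wild-type strain N2, in 12 libraries and 4 groups of 3. One pair of groups was 15 days old, after 100 nM rotenone for 24 h from the L4 stage or with 0.1% DMSO, and the other pair was 5 days old with the same 2 treatments. Rotenone is an inhibitor of mitochondrial complex I, and DMSO is its solvent. The labels leave unstated how long DMSO was given, whether rotenone worms received it as well, the start of the age count, the handling of offspring and whether replicates were separate cultures. P-values therefore weigh a difference only against the spread among these samples, and that spread may be technical.

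Library totals lay between 34307432 and 53716605 counts. Levels are given as CPM, counts scaled to a common library size of 1e6 with TMM factors (trimmed mean of M-values), and a gene was called where its adjusted p in edgeR's quasi-likelihood test (Benjamini-Hochberg over the 17166 genes tested) was under 0.05. Tissue markers also moved between the groups. The summed level of 8 intestinal genes lay between 9328 and 10417 CPM in rotenone worms at 15 days, 9351 and 10424 in DMSO worms at 15 days, 33178 and 36171 in rotenone worms at 5 days, and 48927 and 52525 in DMSO worms at 5 days, and 8 of 8 fell with age under each treatment. Germline and early embryo genes (12) summed to 7854 to 8182, 7975 to 8015, 7364 to 7670 and 7608 to 7779 CPM in the same order of groups, and late embryo matrix genes (5) to 294 to 323, 284 to 315, 605 to 619 and 402 to 450 CPM. Summed neuronal genes (9) lay at 479 to 511, 493 to 507, 636 to 647 and 585 to 612 CPM in that order. Body wall muscle genes (8) summed to 836 to 979, 950 to 1079, 1613 to 1637 and 1973 to 2138 CPM, epidermal genes (5) to 24.2 to 37.4, 32.9 to 38.8, 253 to 270 and 301 to 347 CPM, and sperm genes (8) to 7.30 to 9.75, 6.66 to 9.42, 5.80 to 6.43 and 4.28 to 5.19 CPM. With age in DMSO worms, 6 germline and early embryo genes rose and 2 fell, and 0 and 3 late embryo matrix genes. The neuronal list had 1 rise and 8 falls, muscle 0 and 8, epidermis 2 and 3 and sperm 4 and 1. After rotenone these were 5 and 2, 0 and 5, 1 and 8, 1 and 7, 1 and 3, and 5 and 0 in that order. The epidermal sums thus do not stand for each gene of that list. No marker of these lists was at 0 in every library. In bulk RNA, fewer cells of a type and less RNA per cell cannot be told apart, and the part of these markers in the linc gene differences was not tested.

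The annotation gives all 68 kept genes the type lincRNA, but not all lie between genes. The spans of 23 overlap another annotated gene, and 13 of those 23 overlap a protein-coding gene. Exons of 11 share bases with a protein-coding exon. The library kit does not mark the strand, so where exons overlap, reads of a linc gene cannot be told from those of its partner, whichever strand the partner is on. The kept genes had a median exonic length of 524 bp (127 to 4183), against 405.5 bp for the 102 that missed the count rule. Single-exon genes made up 18, 2-exon genes 33 and genes with 3 or more exons 17 of the 68, against 36, 56 and 10 of the 102. The median distance to the nearest protein-coding gene was 550.5 bp, with 46 of 68 within 1000 bp. Chromosome II carried 19 of the kept genes and chromosome X 15. Chromosome V carried 6, while 27 of its 33 linc- genes missed the rule.

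At the threshold itself, 3 genes had a third-highest count of exactly 10 and 4 a third-highest count of 9. Just inside were linc-68, with 6, 4 and 4 counts in rotenone worms at 15 days, 3, 6 and 10 in DMSO worms at 15 days, 14, 8 and 9 in rotenone worms at 5 days and 10, 4 and 5 in DMSO worms at 5 days, and linc-115, with 7, 10 and 9, then 7, 14 and 7, then 4, 2 and 11, then 0, 6 and 4 counts in the same order. Just outside were linc-82, with 10, 3 and 3, then 8, 3 and 5, then 7, 6 and 12, then 8, 5 and 9 counts, and linc-92, with 6, 1 and 2, then 4, 1 and 3, then 11, 9 and 11, then 3, 1 and 7 counts. Of the 68, 28 reached 10 counts in every library. A further 19 reached 10 counts in 3 libraries at 5 days but not at 15 days. Another 6 did so at 15 days but not at 5 days. More kept genes thus entered through 5 days alone. The rule acts on raw counts, and library totals were 43507026 to 53716605 at 5 days and 34307432 to 52769067 at 15 days. The part of library totals in this split was not tested. The test's own filter removed linc-68 and linc-135 and left 66 genes.

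Per unit of length the most abundant kept gene was linc-7 (chromosome X, 16002599 to 16003728, a single exon of 1130 bp). Its mean was 10.5 ± 1.64 CPM per kb of exon (SD over 12 libraries). It was followed by linc-37 (chromosome III, 832984 to 833347) at 9.52 ± 1.63, linc-2 (chromosome III, 5024881 to 5025007) at 8.6 ± 1.78, linc-6 (chromosome X, 1982710 to 1982883) at 8.38 ± 2.92, linc-29 (chromosome IV, 6354024 to 6357243) at 8.07 ± 1.33 and linc-22 (chromosome X, 9069138 to 9073735) at 7.08 ± 1.11 CPM per kb. Each neighbouring pair in this order differs by less than its SD over libraries. Most of the 6 touch another gene. The gene linc-7 lies across the span of C09G1.4 on the opposite strand, linc-37 and linc-2 share exonic bases with zip-2, a bZIP factor of the pathogen response, and pcf-11, a factor of transcript cleavage, and linc-6 overlaps the noncoding gene F52D2.14. The longest of them, linc-22 with 5 exons and 4071 bp, also contains the small nucleolar RNA gene F47E1.19.

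In counts, linc-22 alone supplied 29.6 ± 0.465% of the counts on the 68 genes in rotenone worms at 15 days, 30.3 ± 0.183% in DMSO worms at 15 days, 36.4 ± 1.49% in rotenone worms at 5 days and 33.4 ± 0.257% in DMSO worms at 5 days (SD, n = 3 each). The 68 genes together had 82.1 ± 4.10 CPM in rotenone worms at 15 days, 84.9 ± 2.51 in DMSO worms at 15 days, 96.1 ± 2.32 in rotenone worms at 5 days and 90.7 ± 1.46 in DMSO worms at 5 days. Without linc-22 the sums were 57.8 ± 2.63, 59.1 ± 1.63, 61.1 ± 0.938 and 60.4 ± 1.14 CPM in that order, so most of the spread between group sums lay in this gene. Only 15 of the 68 averaged 1 CPM or more.

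**Figure D1:**
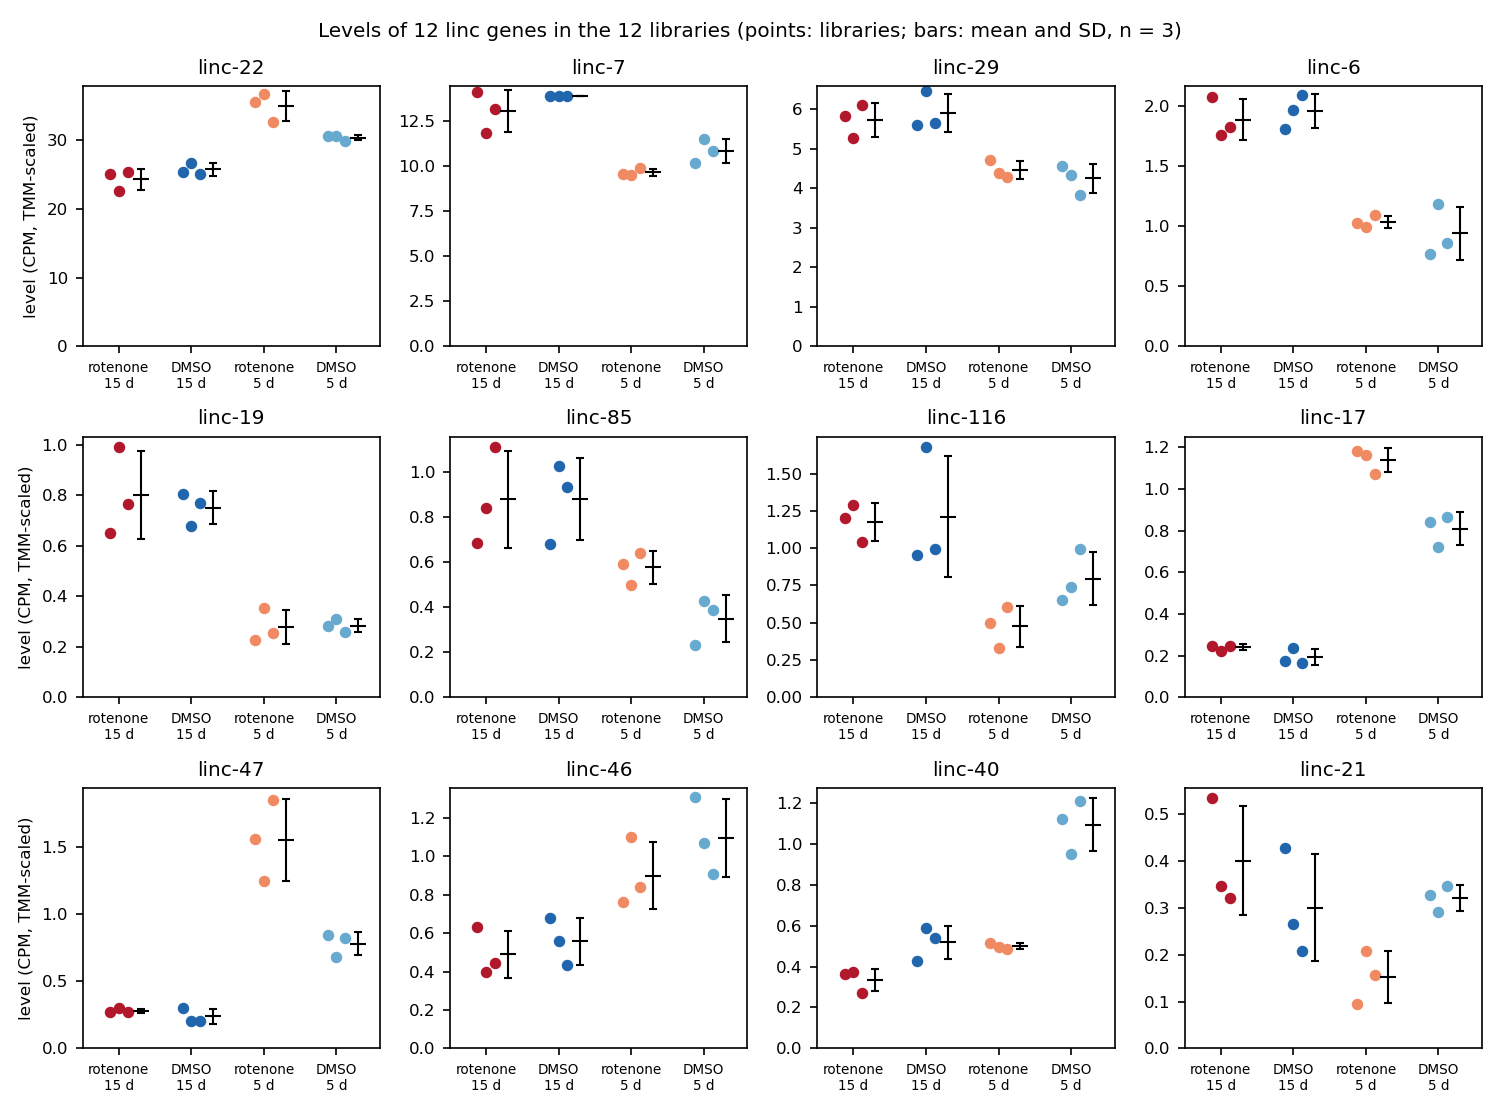
Levels (CPM, linear axes from 0) of 12 linc genes, with a point for each library, and the mean and SD of each group of 3 as a bar beside them. In linc-17 and linc-47 every 15-day library lies below every 5-day library, in linc-6 and linc-19 every 15-day library lies above, and linc-22 has its highest levels in rotenone worms at 5 days.

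Comparing 15 with 5 days in DMSO worms asks which linc genes differ with age. Of the 66 genes tested, 12 rose and 23 fell (53.0% called), against 76.2% of all genes tested, of which 35.2% rose and 40.9% fell. Among genes under 2 CPM, where 58 of the 66 lie, the share called was 51.7% for linc genes and 57.6% for all genes. The median log2 difference was -0.26 for the linc genes and -0.06 for all genes, and 12 linc genes were called at least 2-fold lower and 8 at least 2-fold higher, against 16.7% and 6.37% of all genes. Of the 23 that fell, 12 had reached 10 counts in 3 libraries at 5 days alone, and so had 10 of the 12 that were at least 2-fold lower, while 3 of the 12 that rose had done so at 15 days alone. Such genes entered through the age at which they were high, so these counts are a description. A filter added after seeing the data asked for 10 raw counts in 3 libraries at each age, without regard to library totals. Among the 41 linc genes that pass it, 8 rose and 11 fell, against 36.1% and 41.5% of the 15702 genes that pass this filter.

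Among genes of at least 0.5 CPM the largest fall was in linc-17 (chromosome II, 3596226 to 3596812), which had 10 counts in 3 libraries at 5 days alone, so its age difference is given without a p. It had 0.176, 0.236 and 0.166 CPM in DMSO worms at 15 days, against 0.842, 0.719 and 0.865 CPM in DMSO worms at 5 days. All 3 older libraries lay below all 3 younger ones, and the log2 difference was -2.08 ± 0.24 (SE). The next, linc-47 (chromosome II, 11887765 to 11888180), had 0.302, 0.206 and 0.207 CPM at 15 days and 0.842, 0.681 and 0.822 CPM at 5 days. Its groups did not overlap either, with a log2 difference of -1.70 ± 0.27 (adjusted p = 1.04e-05, edgeR quasi-likelihood test). In linc-40 (chromosome III, 1325891 to 1327724) the values were 0.428, 0.589 and 0.539 CPM at 15 days and 1.12, 0.953 and 1.21 CPM at 5 days, a log2 difference of -1.07 ± 0.20 (adjusted p = 5.83e-05). Its exon shares bases on the same strand with the protein-coding gene Y82E9BL.18, whose own log2 difference was -0.95.

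Smaller falls were seen in linc-46 (-0.98 ± 0.23 on the log2 scale), linc-34 (-0.82 ± 0.21), linc-138 (-0.66 ± 0.26), linc-81 (-0.57 ± 0.20), linc-11 (-0.48 ± 0.12), linc-37 (-0.40 ± 0.13) and linc-22 (-0.24 ± 0.05), with adjusted p between 0.000272 for linc-22 and 0.0283 for linc-138. Of these, linc-138 shares exonic bases with klf-3, a Krüppel-like factor known for a role in fat storage, and klf-3 itself differed by -0.23. The call of linc-138 was lost under DESeq2 and when replicate 1 or 2 of either DMSO group was left out, and that of linc-81 under DESeq2 and when replicate 3 of either was, with adjusted p from 0.0625 to 0.119 over their lost calls. Below 0.5 CPM the largest fall of all was in linc-88 (chromosome X, 8753852 to 8754217), named after its values were seen. No 15-day library reached 10 counts in it, so that it was kept through 5 days alone. It had 2, 2 and 3 counts in DMSO worms at 15 days and 15, 24 and 16 counts at 5 days, a log2 difference of -2.71 ± 0.39, given without a p.

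The largest rise among genes of at least 0.5 CPM was in linc-19 (chromosome III, 3150222 to 3151352). It had 0.806, 0.677 and 0.768 CPM in DMSO worms at 15 days, against 0.281, 0.311 and 0.26 CPM at 5 days. Every older library had more than every younger one, and the log2 difference was 1.396 ± 0.25 (adjusted p = 5.21e-05). In linc-85 (chromosome I, 4295024 to 4296741) the levels were 0.68, 1.03 and 0.934 CPM at 15 days and 0.234, 0.428 and 0.389 CPM at 5 days, a log2 difference of 1.30 ± 0.26 (adjusted p = 0.000192). The short gene linc-6 had 1.81, 1.97 and 2.1 CPM at 15 days and 0.772, 1.19 and 0.865 CPM at 5 days, a log2 difference of 1.04 ± 0.16 (adjusted p = 6.38e-06). Neither of these genes had overlapping groups.

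Among the more abundant genes, linc-29 had 5.59, 6.45 and 5.64 CPM at 15 days and 4.56, 4.34 and 3.83 CPM at 5 days, a rise of 0.47 ± 0.09 on the log2 scale (adjusted p = 9.58e-05). The levels of linc-7 were 13.9, 13.8 and 13.9 CPM at 15 days and 10.2, 11.5 and 10.8 CPM at 5 days, a rise of 0.36 ± 0.06 (adjusted p = 3.86e-05). Rises of linc-116 (0.57 ± 0.24, adjusted p = 0.0357) and linc-91 (0.53 ± 0.21, adjusted p = 0.0274) passed the test although their groups overlapped. The call of linc-116 was lost without replicate 2 at 15 days or without replicate 1 or 2 at 5 days, and that of linc-91 without replicate 2 at 15 days or replicate 2 or 3 at 5 days (adjusted p from 0.0902 to 0.264). Nearest to no difference among the more abundant genes were linc-77 (log2 0.01, 95% interval -0.37 to 0.39), linc-15 (0.04, -0.22 to 0.29) and linc-35 (-0.04, -0.46 to 0.37), whose signs changed under some alternatives.

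After rotenone, the same age comparison called 14 linc genes higher and 28 lower of 66 (63.6%), against 79.5% of all genes tested, of which 36.6% rose and 42.9% fell. Under 2 CPM the shares were 60.3% of linc genes and 61.1% of all genes. DESeq2 called 18 linc genes lower, against 28 in edgeR. The median log2 difference was -0.40 for linc genes and -0.09 for all genes. Of the 28 that fell, 15 had 10 counts in 3 libraries at 5 days alone, and of the 14 that rose, 4 had them at 15 days alone. Among the 41 genes with 10 counts in 3 libraries at each age, 10 rose and 13 fell, against 37.4% and 43.6% of all genes that pass this filter.

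In rotenone worms linc-47 had 0.267, 0.297 and 0.272 CPM at 15 days, against 1.56, 1.24 and 1.85 CPM at 5 days. That is a log2 difference of -2.47 ± 0.22 (adjusted p = 3.18e-09), with no overlap. The levels of linc-17 were 0.248, 0.223 and 0.247 CPM at 15 days and 1.18, 1.16 and 1.07 CPM at 5 days, a log2 difference of -2.23 ± 0.21, again without a p. Falls also passed the test in linc-46 (-0.84 ± 0.24), linc-81 (-0.76 ± 0.19), linc-11 (-0.71 ± 0.11), linc-34 (-0.70 ± 0.20), linc-14 (-0.57 ± 0.23) and linc-40 (-0.56 ± 0.24). The call of linc-40 was the least firm, at an adjusted p of 0.0437 and of 0.0502 with sequencing lane as a block. It was also lost under DESeq2, with relative log expression (RLE) factors, without the low-count filter, without replicate 1 or 3 at 15 days and without any single replicate at 5 days. That of linc-14 was lost under DESeq2, with RLE factors and without replicate 3 at 15 days or replicate 1 at 5 days (adjusted p from 0.0502 to 0.207 over both genes' lost calls).

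Upwards, linc-19 had 0.649, 0.992 and 0.767 CPM in rotenone worms at 15 days and 0.229, 0.353 and 0.254 CPM at 5 days, a log2 difference of 1.51 ± 0.24 (adjusted p = 1.24e-05). The values of linc-116 were 1.2, 1.29 and 1.04 CPM at 15 days and 0.496, 0.332 and 0.605 CPM at 5 days, a log2 difference of 1.29 ± 0.25 (adjusted p = 0.000108), this time with no overlap. Rises of linc-6 (0.87 ± 0.15), linc-85 (0.58 ± 0.23), linc-7 (0.44 ± 0.06), linc-29 (0.36 ± 0.09) and linc-9 (0.34 ± 0.11) also passed. The call of linc-85 was lost without replicate 3 at 15 days or replicate 1 or 2 at 5 days, and that of linc-9 without replicate 1 at 5 days (adjusted p from 0.058 to 0.165 over these and scaling by library totals).

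The age differences under DMSO and after rotenone share no library. Of 66 linc genes, 55 had the same sign in both, and 28 were called in both, 9 higher and 19 lower, with none called in opposite directions. In shares these are 83.3% of equal sign and 42.4% called in both, against 88.8% and 67.2% of all genes tested and 85.6% and 46.8% of all genes under 2 CPM. The 28 are 80% of the genes called in DMSO worms and 66.7% of those called after rotenone. Calls in DMSO worms alone numbered 7 and calls after rotenone alone 14, but a call under a single treatment does not show a difference between treatments. Across genes, which are not independent replicates, the 2 sets of log2 differences had Pearson's r of 0.84 and Spearman's rho of 0.85, and the genes share library scaling within each comparison. Of the 68 kept genes, 19 had 10 counts in 3 libraries at 5 days alone and 6 at 15 days alone. Such genes entered through the age at which they were high, and both comparisons contain them, so the agreement is a description.

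**Figure D2:**
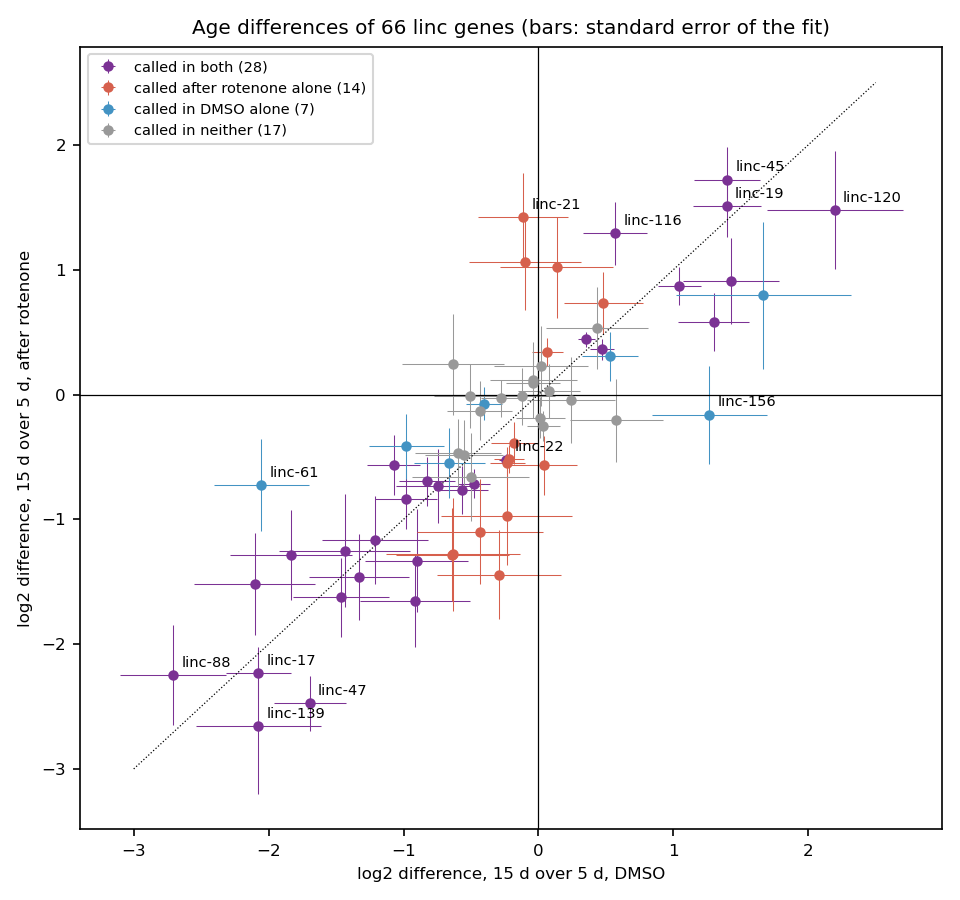
Log2 difference of 15 over 5 days in 66 linc genes, in DMSO worms on the horizontal axis and after rotenone on the vertical axis, with standard errors as bars and colours for where a gene was called. Most points lie in the quadrants of equal sign, with linc-88, linc-139, linc-17 and linc-47 at the low end and linc-120, linc-19 and linc-45 at the high end.

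Rotenone against DMSO at 5 days asks what linc genes showed after exposure in young adults. Here 6 linc genes rose and 6 fell (18.2% of 66), against 44.7% of all genes tested, of which 21.3% rose and 23.3% fell. With library totals as the scaling, 8 rose and 3 fell. DESeq2 called 2 of the 6 rises, linc-47 and linc-22, and not linc-85 (adjusted p = 0.101) or linc-17 (adjusted p = 0.179), and gave no adjusted p for linc-151 and linc-42. Under 2 CPM, 15.5% of linc genes and 16.4% of all genes were called. Among the marker lists, 5 of 5 late embryo matrix genes and 5 of 9 neuronal genes rose, 4 of 8 intestinal genes fell, and 2 rose and 5 fell of 8 body wall muscle genes. In the germline and early embryo list 1 rose and 3 fell of 12, and in the epidermal list 1 rose and 1 fell of 5. In the sperm list 1 rose and 2 fell of the 7 tested. The sperm sum was nonetheless higher after rotenone, so it does not stand for each gene of that list.

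Of the rises, linc-47 had 1.56, 1.24 and 1.85 CPM in rotenone worms, against 0.842, 0.681 and 0.822 CPM in DMSO worms. It was higher in all 3 rotenone libraries than in any DMSO library, with a log2 difference of 0.9998 ± 0.18 (adjusted p = 0.000136). The abundant linc-22 had 35.6, 36.8 and 32.6 CPM in rotenone worms and 30.5, 30.5 and 29.9 CPM in DMSO worms, a log2 difference of 0.21 ± 0.05 (adjusted p = 0.00171). The levels of linc-17 were 1.18, 1.16 and 1.07 CPM in rotenone worms and 0.842, 0.719 and 0.865 CPM in DMSO worms, a difference of 0.50 ± 0.16 on the log2 scale (adjusted p = 0.0175). These groups do not overlap, and neither do those of linc-85, with 0.591, 0.498 and 0.644 CPM in rotenone worms and 0.234, 0.428 and 0.389 CPM in DMSO worms (log2 0.70 ± 0.28, adjusted p = 0.0461). The other 2 rises were in genes under 0.5 CPM, linc-151 (log2 1.39 ± 0.35, with 37, 29 and 31 counts after rotenone and 11, 20 and 3 in DMSO) and linc-42 (log2 0.98 ± 0.38, with 14, 11 and 16 counts after rotenone and 9, 6 and 4 in DMSO). The gene linc-42 met the count rule through its 3 rotenone libraries at 5 days alone, so its rise is a description. Its call was lost when lane entered the fit as a block (adjusted p = 0.059), without the low-count filter, without DMSO replicate 2 or 3 and without any single rotenone replicate (adjusted p up to 0.17).

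The largest fall was in linc-40, with 0.515, 0.498 and 0.488 CPM in rotenone worms and 1.12, 0.953 and 1.21 CPM in DMSO worms. Its rotenone libraries all lay below its DMSO libraries, with a log2 difference of -1.12 ± 0.19 (adjusted p = 7.74e-05), and the overlapping Y82E9BL.18 differed by -0.46. In linc-116 the levels were 0.496, 0.332 and 0.605 CPM in rotenone worms and 0.655, 0.739 and 0.995 CPM in DMSO worms (log2 -0.73 ± 0.27, adjusted p = 0.0334). Falls of linc-37 (-0.35 ± 0.13, adjusted p = 0.0328) and linc-7 (-0.17 ± 0.06, adjusted p = 0.0375) were small, while zip-2, which shares exonic bases with linc-37, differed by 0.09, and C09G1.4, whose span linc-7 crosses, by 0.37. The other falls were in linc-61 (-0.97 ± 0.28) and linc-21 (-1.07 ± 0.37), both under 0.5 CPM, and that of linc-21 was lost without replicate 1 or 3 of either group (adjusted p from 0.0534 to 0.12).

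Several of these calls changed with single libraries or settings. Those of linc-116, linc-37 and linc-7 were each lost with library totals as the scaling, without DMSO replicate 2 or 3, and without rotenone replicate 1 or 2 (adjusted p from 0.0505 to 0.562). The call of linc-85 was lost under DESeq2, with RLE factors and without replicate 1 or 3 of either group. That of linc-17 was lost under DESeq2, without the low-count filter, and without DMSO replicate 2 or rotenone replicate 1 (adjusted p from 0.0518 to 0.183 over their lost calls). Without rotenone replicate 1, 3 linc genes rose and 2 fell. Without DMSO replicate 2 or 3, 3 fell.

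At 15 days none of the 66 linc genes was called between rotenone and DMSO worms in edgeR's test, against 0.408% of all genes (0.28% higher and 0.128% lower), and DESeq2 also called 0, giving no adjusted p for 57 of them. The lowest adjusted p was 0.593, and 2 genes, linc-40 and linc-103, had an unadjusted p under 0.05 and are named for that. The level of linc-40 was 0.363, 0.372 and 0.272 CPM in rotenone worms and 0.428, 0.589 and 0.539 CPM in DMSO worms, lower in all 3 but not called (log2 -0.61 ± 0.25, adjusted p = 0.6). For the abundant genes the intervals were narrow. The 95% interval of the log2 difference was -0.19 to 0.03 for linc-22, -0.21 to 0.05 for linc-7 and -0.21 to 0.15 for linc-29. For linc-47 it ran from -0.48 to 0.92, which ends just below that gene's difference at 5 days, and for linc-17 from -0.32 to 0.9989, which contains it. The rotenone comparisons at the 2 ages share no library, and 31 of 66 linc genes had the same sign in both (Pearson's r = 0.06 across genes).

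**Figure D3:**
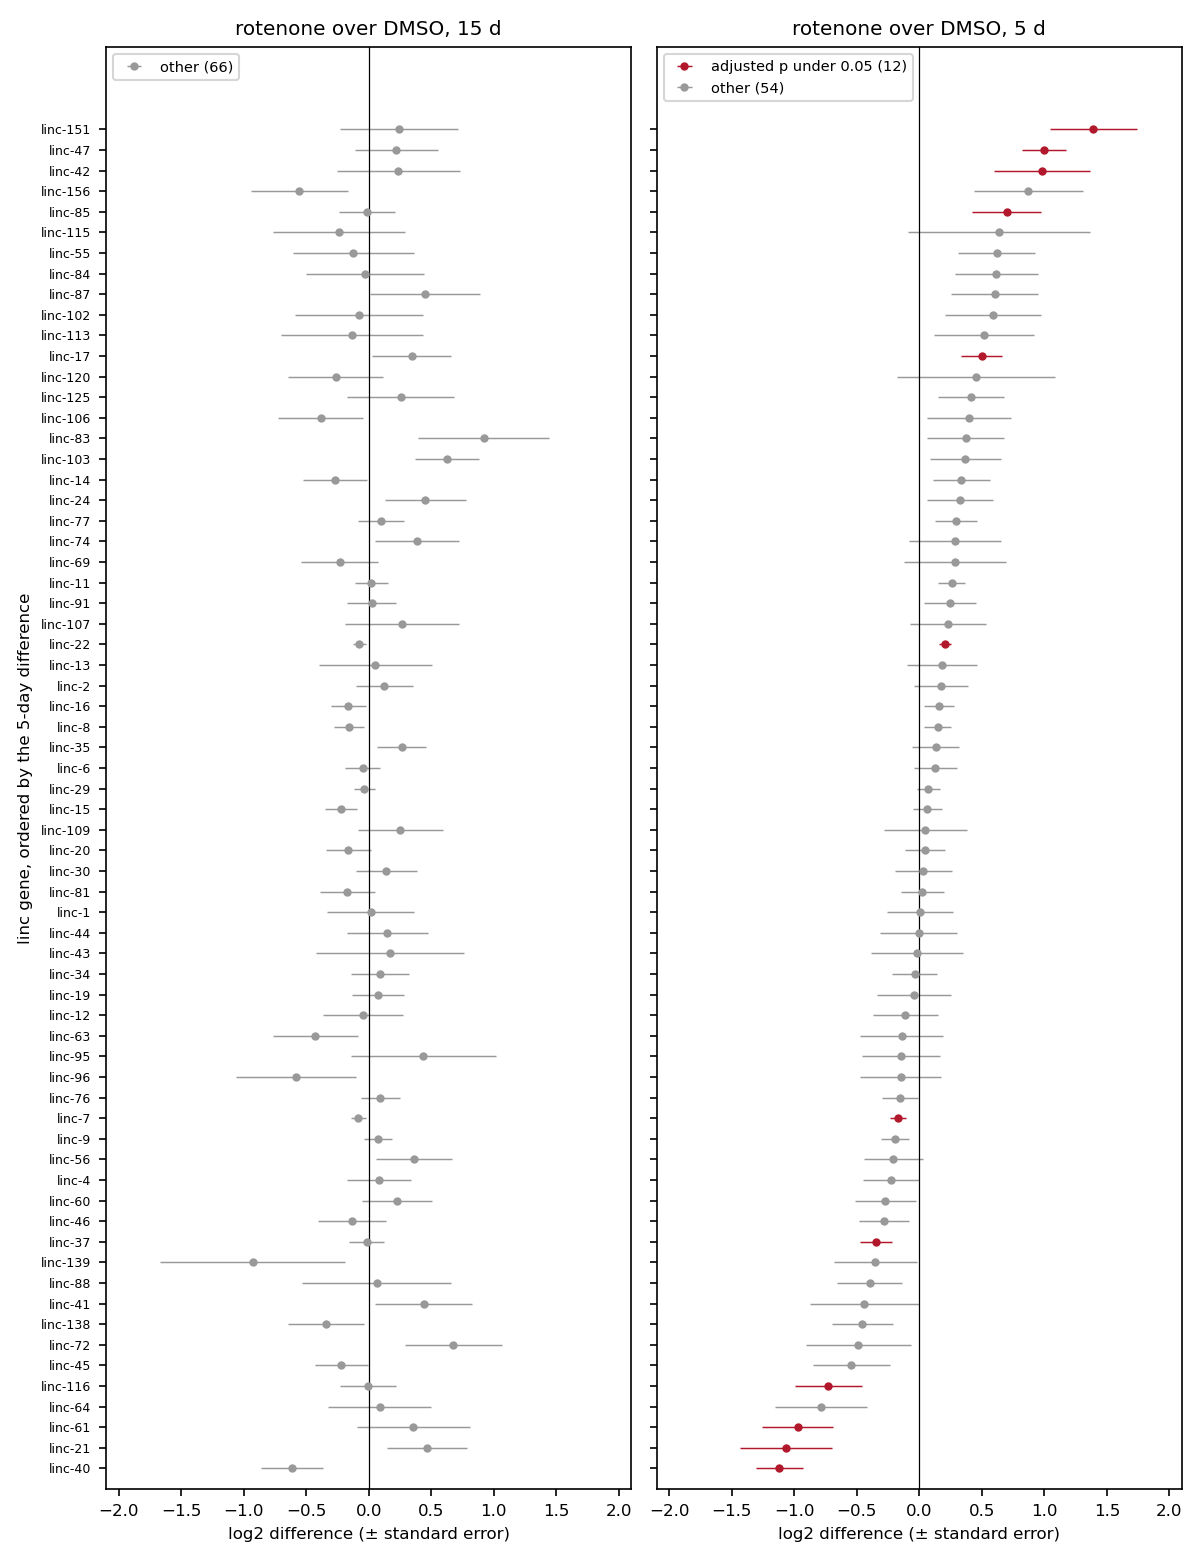
Log2 difference of rotenone over DMSO in 66 linc genes, at 15 days on the left and at 5 days on the right, ordered by the 5-day value, with standard errors as bars. The 12 genes called at 5 days stand in red on the right, and no gene is called on the left.

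Whether the rotenone difference itself changed between 15 and 5 days was tested as an interaction. It was called in 2 of 66 linc genes (3.03%), 1 higher and 1 lower, against 25.7% of all genes (15.4% higher and 10.3% lower) and 4.98% of all genes under 2 CPM. The log2 difference of rotenone over DMSO in linc-22 was -0.08 ± 0.05 at 15 days and 0.21 ± 0.05 at 5 days. Its 15-day levels of 25, 22.6 and 25.3 CPM after rotenone and 25.4, 26.7 and 25.1 CPM in DMSO overlap, while its 5-day levels do not, and the interaction was -0.28 ± 0.07 (adjusted p = 0.00635). The call held in all 20 alternatives run for it. With library totals as the scaling, 1 linc gene was called higher and 3 lower in the interaction.

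The other was linc-21 (chromosome IV, 4242086 to 4242466). It had 28, 14 and 13 counts in rotenone worms at 15 days, 17, 9 and 10 in DMSO worms at 15 days, 5, 10 and 8 in rotenone worms at 5 days and 14, 15 and 16 in DMSO worms at 5 days. The rotenone libraries were the lower ones at 5 days, with no overlap, whereas at 15 days the groups overlapped. The log2 difference was 0.47 ± 0.32 at 15 days and -1.07 ± 0.37 at 5 days, and the interaction was 1.54 ± 0.49 (adjusted p = 0.0265). That call was lost without DMSO replicate 3 at either age and without rotenone replicate 1 at either age (adjusted p from 0.0541 to 0.0878), and DESeq2 gave it no adjusted p. The difference of linc-47 between treatments, 0.22 at 15 days and 0.9998 at 5 days, was not called in the interaction (-0.78 ± 0.39, adjusted p = 0.152).

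Of the kept genes, 3 pairs lie within 5000 bp of each other on the same strand. Between linc-19 and linc-45 (chromosome III, 3151809 to 3152607) the gap is 456 bp. The level of linc-45, named for its place, was 0.554, 0.744 and 0.767 CPM in rotenone worms at 15 days, 0.655, 0.766 and 0.934 in DMSO worms at 15 days, 0.229, 0.166 and 0.215 in rotenone worms at 5 days and 0.327, 0.311 and 0.26 in DMSO worms at 5 days. Both genes were higher in every 15-day library than in any 5-day library. The age differences of linc-45 were 1.72 ± 0.26 after rotenone and 1.398 ± 0.24 in DMSO, beside 1.51 and 1.396 for linc-19. Reads of a single transcript across such a pair would be counted for both genes, and the count table does not show whether there is one. Between linc-41 (chromosome IV, 4241224 to 4241765) and linc-21 the gap is 320 bp, and linc-41 differed with age by 1.02 ± 0.40 after rotenone and by 0.14 in DMSO on the log2 scale. It had 10, 13 and 11 counts in rotenone worms at 15 days and 5, 8 and 6 at 5 days, and met the count rule mainly through those 3 older libraries, so that its age difference after rotenone is a description. Its interaction was 0.88 (adjusted p = 0.299). The third pair is linc-17 and linc-68, 703 bp apart, of which linc-68 was not tested.

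Against their nearest protein-coding gene, linc genes were described separately where they lie apart and where they overlap it, without a test of that division. For the 49 pairs that lie apart, the sign of the age difference matched in 28 after rotenone and in 27 in DMSO, with Pearson's r of -0.09 in each. Of 13 overlapping pairs the sign matched in 10 after rotenone and 6 in DMSO. Pearson's r was 0.83 and 0.67 in these pairs (Spearman's rho 0.65 and 0.40). In DMSO, linc-120 and its partner C34C6.3 had the highest values of either kind, 2.20 and 2.04. No other linc gene of these pairs exceeded 0.36 there. Pearson's r is sensitive to such a pair and was not computed without it. Exons of 11 of these 13 linc genes share bases with a protein-coding exon, and how reads there were assigned is not given. Among the overlapping genes, linc-120 differed by 1.48 ± 0.47 after rotenone and by 2.20 ± 0.50 in DMSO, a description, since it reached 10 counts in 4 libraries at 15 days and in none at 5 days. It shares exonic bases on the same strand with C34C6.3, which differed by 1.76 and 2.04, and a DMSO library at 5 days had no count on linc-120. In contrast linc-72, likewise kept through 15 days, had log2 differences of 1.07 after rotenone and -0.10 in DMSO while F46C5.1, which it overlaps on the opposite strand, had 1.82 and 1.87. Among the pairs that lie apart, linc-21 and linc-41 have col-34, a cuticle collagen gene, as their nearest, with age differences of -2.70 after rotenone and -2.40 in DMSO. The gene nearest to linc-47, ZK930.6 at 1163 bp, differed by 0.33 and 0.57, opposite in sign to linc-47.

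**Figure D4:**
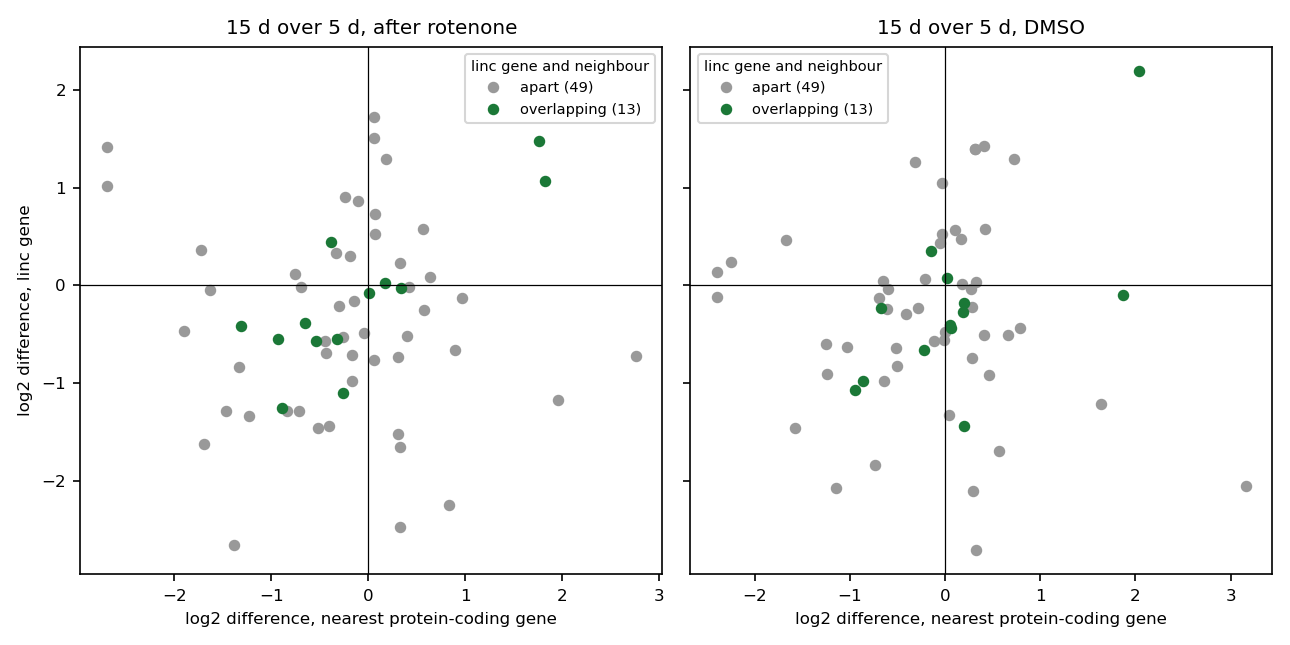
Log2 difference of 15 over 5 days of each linc gene (vertical) against that of its nearest protein-coding gene (horizontal), after rotenone on the left and in DMSO worms on the right. The 13 overlapping pairs are green and the 49 pairs that lie apart grey, and the grey points had Pearson's r of -0.09 in each panel.

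By position and structure the age calls are given as counts without a test. Of all genes tested, 36.6% rose and 42.9% fell after rotenone, and 35.2% rose and 40.9% fell in DMSO. Among the linc genes that fell, 15 of 28 after rotenone and 12 of 23 in DMSO had 10 counts in 3 libraries at 5 days alone. After rotenone, 2 rose and 3 fell of 9 tested genes on chromosome I, 2 and 10 of 18 on chromosome II, 3 and 3 of 12 on III, 3 and 1 of 6 on IV, 1 and 4 of 6 on V and 3 and 7 of 15 on X. In DMSO worms 3 rose and 1 fell on I, 1 and 9 on II, 3 and 3 on III, 1 and 0 on IV, 1 and 4 on V and 3 and 6 on X. Single-exon genes had 3 rises and 7 falls of 18 after rotenone and 3 and 7 in DMSO, 2-exon genes 4 and 16 of 31 and 4 and 14, and genes of 3 or more exons 7 and 5 of 17 and 5 and 2.

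Other long noncoding RNA genes gave a setting for these levels. Genes with symbols that begin anr- are noncoding RNAs antisense to other genes, and 10 were tested. With age, 2 rose and 3 fell after rotenone, and 2 rose and 1 fell in DMSO. Over all genes 79.5% and 76.2% were called. Under 2 CPM, where most of the 10 lie, the shares of all genes were 61.1% and 57.6%. None was called between rotenone and DMSO at either age in edgeR's test, against 44.7% of all genes at 5 days and 0.408% at 15 days. Among all genes under 2 CPM the share called at 5 days was 16.4%, so 0 of 10 says little about these genes. The ribosome-associated tts-1, known for abundance in long-lived mutants, had 999, 847 and 964 CPM in rotenone worms at 15 days, 952, 908 and 993 in DMSO worms at 15 days, 740, 701 and 717 in rotenone worms at 5 days and 754.5, 669 and 661 in DMSO worms at 5 days. It was higher in every older library, by 0.38 ± 0.05 after rotenone and 0.45 ± 0.05 in DMSO on the log2 scale. The opposite direction was seen in rncs-1, a noncoding RNA induced by starvation, which had 17.3, 20.2 and 15.9 CPM in rotenone worms at 15 days, 17.4, 19.9 and 16.3 in DMSO worms at 15 days, 38.8, 39.9 and 44.7 in rotenone worms at 5 days and 38, 35.8 and 40.9 in DMSO worms at 5 days. Its age differences were -1.21 ± 0.08 and -1.10 ± 0.08. The developmental timing RNA lep-5 differed by -0.01 after rotenone and by -0.11 ± 0.04 in DMSO (adjusted p = 0.0297).

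The linc genes, most of them at low level, had wider standard errors than all genes together. Their median standard error of the log2 age difference was 0.28 after rotenone and 0.29 in DMSO, against 0.08 over all genes in each. Over all genes under 2 CPM it was 0.26 after rotenone and 0.27 in DMSO. Among called genes the median size of the log2 age difference in DMSO worms was 1.21 for linc genes and 0.64 for all genes. Of these linc genes, 12 of the 23 that fell met the count rule through 5 days alone. Of the 12 that rose, 3 met it through 15 days alone. Entry through the age of the higher level can enlarge the linc median. The genes compared are also not of like level, so both medians are a description. The spread of linc genes between replicates was not wide for their counts. The median residual chi-square per degree of freedom was 0.970 for linc genes and 1.55 for all genes, and the highest linc gene was linc-22 at 2.98. This ratio rises with the count for a given variation between replicates, so the 2 medians do not compare genes of like level.

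**Figure D5:**
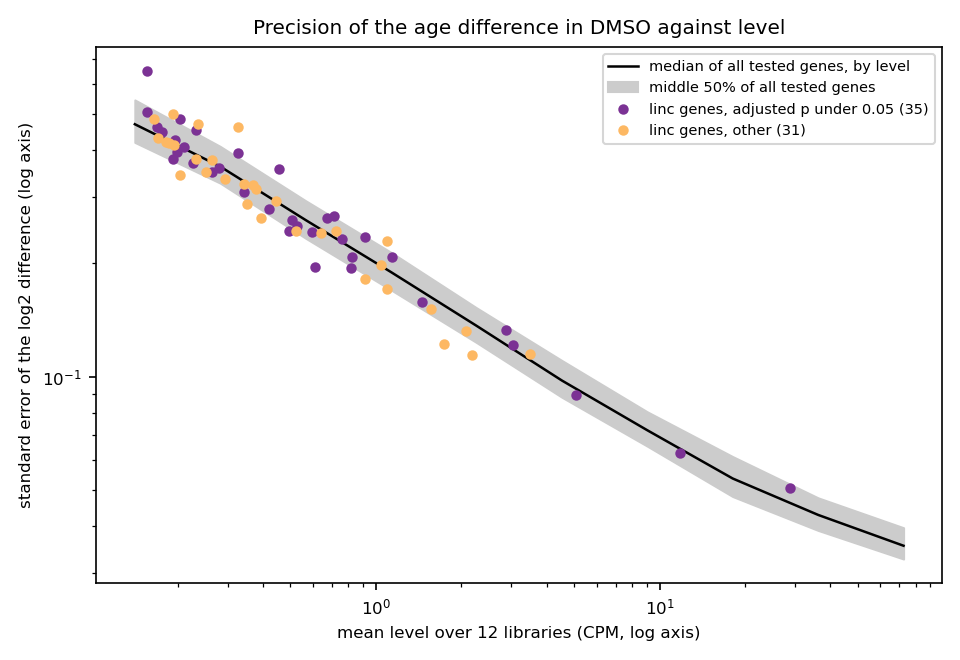
Standard error of the log2 age difference in DMSO worms against the mean level over 12 libraries (both log axes), for 66 linc genes as points and all tested genes as a line with a grey band. The linc genes follow the line, and those called lie at all levels.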

How the data were processed

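The authors deposited counts per gene, whole numbers without normalization, made with bcl2fastq 1.8.3, STAR 2.4.1d, featureCounts 1.4.6-p4 and the build WBcel235, per the submitters' processing notes. Settings and annotation release are not given in the sources used here. The authors' deposited RPKM table divides counts by library totals repeated down its columns (gene lengths differed by at most 0.0523% between libraries under that reading, in 3862 genes that had 2000 counts or more in all libraries). It was used only for the gene length it implies. Among the kept genes that length differs from the annotated exons by over 1% for 2, linc-4 and linc-72.

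Symbols, positions and overlaps came from Ensembl release 115 of WBcel235, which holds 46449 of the 46748 identifiers. All 12 libraries entered 1 edgeR 4.0.16 quasi-likelihood fit of 4 groups (R 4.3.3, filterByExpr with a minimum count of 10, TMM, 17166 genes), and p-values were adjusted by Benjamini-Hochberg over all genes tested. Standard errors were derived from the size of the log2 difference and its F statistic, and 95% intervals from them with the t quantile of the fit's degrees of freedom. The procedure was first tested on simulated data. DESeq2 1.42.0, other scalings, other filters and leaving out each library were alternatives. The members and gene lists were chosen with earlier results of these data known. Named with values were the 6 highest per kb, called genes of at least 0.5 CPM with the largest differences (up to 8 a direction), those called in the interaction, those at the threshold and the 3 nearest to no age difference, and other names are marked as chosen afterwards or stand for their place, overlap or extreme value.

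Replicate numbers match 3 sequencing lanes in the labels, which is where the pairing comes from. Deviations of same-lane libraries correlated between -0.046 and 0.18 over 18 pairs. Lane as a block was an alternative. Replicates differed by more than sampling noise, and none was counted as a copy.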

Additional observations from a re-analysis of the deposited data

Results flagged for a closer look

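The interaction of rotenone and age, a test of the difference between 2 differences, passed its threshold in 2 linc genes. In linc-22 the rotenone difference was lower at 15 days than at 5 days by a log2 value of -0.283 (adjusted p = 0.00635, edgeR quasi-likelihood test), with the call kept in each alternative run. In linc-21 the rotenone difference was higher at 15 days than at 5 days by a log2 value of 1.54 (adjusted p = 0.0265), on 5 to 28 counts per library.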

How the results depend on the processing

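For the calls at 5 days between rotenone and DMSO, DESeq2 gave 2 higher (6 in edgeR) and library totals 3 lower (6 in edgeR), and leaving out single libraries gave 3 to 5 higher and 2 to 5 lower. For age in DMSO, the filter at each age (added after seeing the data, 41 genes) gave 11 lower against 23, and leaving out libraries 9 to 12 higher and 20 to 22 lower. For age after rotenone, that filter gave 13 and DESeq2 18 lower against 28, and leaving out libraries 11 to 13 higher and 23 to 25 lower. The interaction had 0 higher under DESeq2 and 3 lower with library totals, against 1 each, and leaving out libraries gave 0 to 2 higher and 1 to 2 lower. No alternative called a linc gene at 15 days between rotenone and DMSO. Scaling by library totals moved the median rotenone difference at 5 days by 0.12, giving 0.15 for all genes and 0.19 for linc genes. With sequencing lane as a replicate block the counts were 5 higher and 6 lower (rotenone, 5 days), 12 and 22 (age in DMSO) and 14 and 27 (age after rotenone), and of the genes named it ended the calls of linc-40 (age after rotenone) and linc-42 (rotenone, 5 days).

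Of 651 alternative values for 43 named results, 578 kept direction and call, 62 lost the call and 11 changed sign. The sign changes were in the 3 genes nearest to no age difference. For linc-77 the log2 difference was -0.0258 without the low-count filter, and lay between -0.063 and 0.144 with a DMSO library left out, below 0 without replicate 1 or 2 of either age. For linc-15 it was -0.00385 without the filter, and -0.0237 to 0.122 with a library left out, below 0 without 5-day replicate 1. For linc-35 it was 0.0124 with DESeq2, 0.0208 with RLE factors and -0.179 to 0.0671 with a library left out, above 0 without replicate 1 of either age. The cause was not tested. DESeq2 gave no adjusted p for 27 linc genes (rotenone, 5 days), 57 (rotenone, 15 days) and 51 (interaction). Counting exon against exon, 19 genes overlap another in place of 23 by span.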
